A study of Mus musculus and Homo sapiens with 4 samples.

Results

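A window of 1 Mb on the long arm of human chromosome 11, at 11q23.3 (hg19, bases 118000001 to 119000000), held 13 of the 2911 peaks of the zinc-finger transcription factor Miz1 listed for the line labelled MDA-MD-231. The peaks were selected by position: a peak was a member if its centre lay in the window, and the window itself was chosen from the peak list for its high number of peaks. That number, and the spacing that depends in part on it, are therefore given as descriptions with no test. The series held 3172 listed peaks in all, of which 261 came from mouse neuronal progenitor cells and are not part of this description.

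Miz1 binds DNA directly through its zinc fingers and can also act in a complex with the oncoprotein MYC. Chromatin immunoprecipitation followed by sequencing (ChIP-seq) lists the stretches where fragments bound by an antibody pile up, and each such stretch is a peak. The series as a whole concerned the part of Miz1 in autophagy, the process by which cells deliver their own components to lysosomes. The line labelled MDA-MD-231 was grown in DMEM with fetal calf serum and probed with the antibody G18, and an input library of unselected DNA accompanied it. There was 1 Miz1 library of this line, so no value below has a replicate error, and none was tested. Values of the input library were not analysed here, and its read depth and that of the Miz1 library are not known here.

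The window was named for a set of 9 genes with known roles in the cell. Of these, 3 belong to membrane traffic: ARCN1 encodes a subunit of the COPI coat, which carries cargo from the Golgi back to the endoplasmic reticulum. TRAPPC4 encodes a subunit of the TRAPP complexes, which tether vesicles and activate Rab proteins. VPS11 encodes a core subunit of the HOPS and CORVET tethers of endosomes and lysosomes, and HOPS takes part in the fusion of autophagosomes with lysosomes. The other genes named are KMT2A (a histone methyltransferase), UBE4A (a ubiquitin ligase), DDX6 (an RNA helicase of processing bodies), RPS25 (a ribosomal protein), HYOU1 (a chaperone of the endoplasmic reticulum) and H2AFX (a histone variant that is phosphorylated at DNA breaks). No gene annotation or sequence of hg19 was used here, so no peak was assigned to any of these genes, and no promoter, exon, intron or motif is given at a peak. The peaks are called by their order along the chromosome, 1 to 13.

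The data describe this window less as evenly filled than as 1 tight run of peaks with a few single peaks around it. Peaks 4 to 12 formed a run of 9 peaks, or 69.2% of the window's peaks, within 18.1 kb (bases 118782648 to 118800737). The other 4 peaks stood alone, at least 34.9 kb from their nearest neighbour. With peaks under 5 kb apart counted as 1 place, the 13 peaks lay at 5 places. The limit of 5 kb was chosen after the positions were seen. Which of the named genes, if any, has a peak at its start was not determined here.

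**Figure D1:**
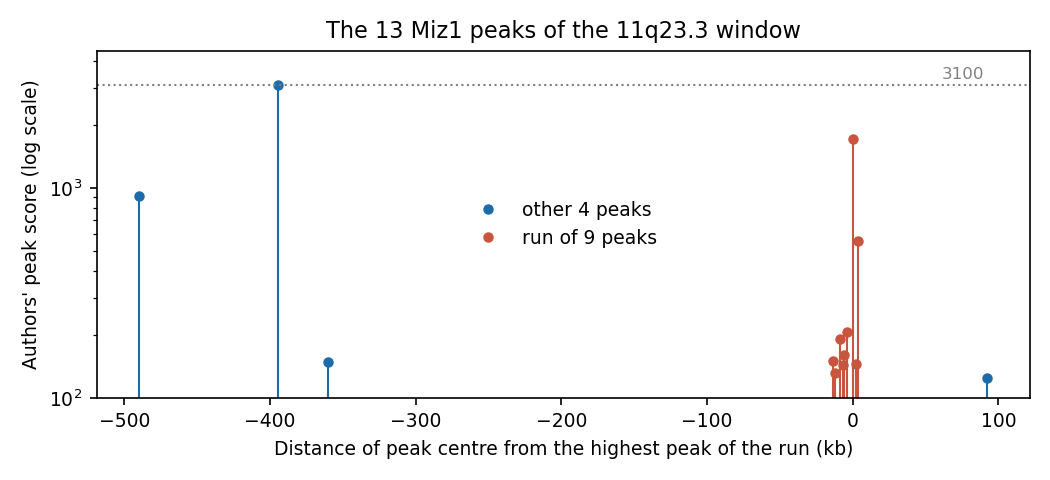
Position and score of the 13 peaks: the x axis gives the distance of each peak centre from the highest peak of the run in kb, and the y axis the authors' score on a log scale. The run of 9 peaks sits within 18.1 kb, while the 4 single peaks lie 92.4 kb to one side and 360 to 490 kb to the other, 1 of them with a score of 3100 (dotted line), the value at which 159 peaks of the list tie.

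The score beside each position is the authors' own value per peak, deposited with the list and not defined in it. Of the list, 159 peaks tied at exactly 3100, and 2 peaks scored above it, up to 3225, neither of them on chromosome 11. The median of the list was 185. Peak 1 (bases 118306620 to 118307378) was 759 bp wide with a score of 918. Peak 2 (bases 118401100 to 118402658) was the widest of the 13, with 1559 bp, and scored 3100. These were the highest-scoring of the peaks that stood alone, and their centres were 94.9 kb apart. On chromosome 11 this score was shared by 9 of 193 peaks and exceeded by 0, so peak 2 was tied for the top, and by width it ranked 3rd of the 193. Peak 1 had the 29th highest score of the chromosome.

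The remaining single peaks were narrow and low. Peak 3 (bases 118436638 to 118436938) was 301 bp wide with a score of 148, and its centre lay 34.9 kb from that of peak 2. Peak 13 (bases 118888970 to 118889263) was the narrowest and the lowest of the window, 294 bp wide with a score of 124. Of the whole list, 21.4% of peaks scored lower than peak 13 and 36.1% scored lower than peak 3. The 4 single peaks thus ranged in score from 124 to 3100.

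Within the run, 2 peaks stood out by score and 7 did not. Peak 10 (bases 118796410 to 118796993) was 584 bp wide and scored 1704, the 15th highest value of chromosome 11. Peak 12 (bases 118799649 to 118800737) was the widest of the run, with 1089 bp, and scored 559. The centres of these peaks were 3.49 kb apart, both near the end of the run with the higher coordinates.

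The other peaks of the run scored between 132 and 205, with a median of 150. Peak 4 (bases 118782648 to 118783368) was 721 bp wide and scored 150, and peak 5 (bases 118784037 to 118784848) was 812 bp wide and scored 132, with 668 bp between them. Peak 6 (bases 118787501 to 118787833) was 333 bp wide and scored 191. Peak 7 (bases 118790064 to 118790446) was 383 bp wide and scored 143. It was separated by only 16 bp from peak 8 (bases 118790463 to 118790865), which was 403 bp wide and scored 161. Peak 9 (bases 118792665 to 118793147), the last before peak 10, was 483 bp wide and scored 205. Peak 11 (bases 118798677 to 118799085), between peaks 10 and 12, was 409 bp wide and scored 144. The low peaks therefore lay on both sides of peak 10, but 6 of the 7 were on the side with the lower coordinates, up to 13.7 kb from its centre.

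**Figure D2:**
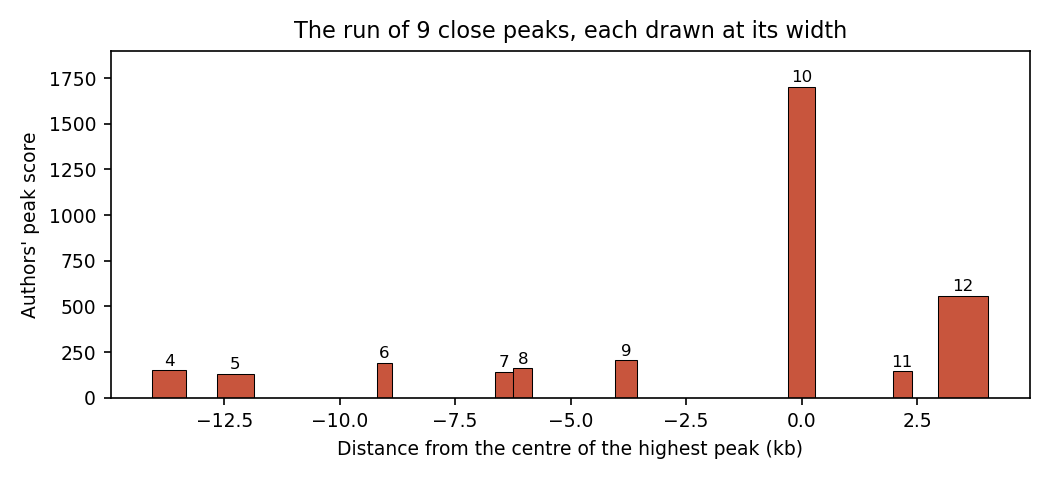
The run of 9 close peaks, numbered 4 to 12 in their order along the chromosome: each box spans the width of its peak on the x axis (distance from the centre of peak 10, in kb) and reaches its score on the y axis. Peaks 10 and 12 reach 1704 and 559, and the other 7 lie between 132 and 205.

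Spacing in the window was set beside the rest of chromosome 11, which was not matched to the window in gene content. The median distance between the centres of neighbouring peaks was 2.91 kb over the 12 distances inside the window (range 0.409 to 346 kb), against 206 kb over the 180 other distances on the chromosome (quartiles 52.1 and 725 kb). Inside the run it was 2.21 kb over 8 distances (range 0.409 to 3.80 kb). Another centre within 5 kb was found for 9 of the 13 peaks, all of them in the run, and for 12.2% of the 180 peaks on the rest of the chromosome. Of the 20 distances under 5 kb on the whole chromosome, 8, or 40%, were those of this run. Since the window was chosen for its number of peaks, distances shorter than on most of the chromosome were favoured by the choice. The run was itself defined by gaps under 5 kb between neighbours. Its short distances, and its share of those under 5 kb, follow in part from that definition. The median of 2.91 kb came from the run, which gave 8 of the 12 distances. Peaks covered 28.8% of the run and 0.813% of the window.

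Long stretches of the window held no peak. Peaks 3 and 4 were separated by 346 kb, and peaks 12 and 13 by 88.2 kb. Before the window, the nearest peak was 4.19 Mb from peak 1 (bases 114118125 to 114118447, 323 bp, score 259), the 7th longest of 192 distances on the chromosome. After the window, the nearest was 343 kb from peak 13 (bases 119231776 to 119232047, 272 bp, score 232). No peak lay close to either limit of the window: the outermost centres were 307 and 111 kb inside it.

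The high count of the window rested on the run. Of the 135 windows of 1 Mb up to the last peak of chromosome 11, this one had the most peaks, the property it was chosen for, and the next held 10 (67 to 68 Mb). The others had a median of 1 peak, and 63 had 0. They were not matched to this window in gene content, which was not measured here. With peaks under 5 kb apart counted once, the window held 5 places. Then 5 other windows held more, up to 8 (19 to 20, 65 to 66 and 67 to 68 Mb), and 4 held as many. With peaks under 1 kb apart counted once, 10 remained, against 9 at most elsewhere. Counting only peaks that scored no lower than the list's median, the window held 6 and the window from 67 to 68 Mb held 9.

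**Figure D3:**
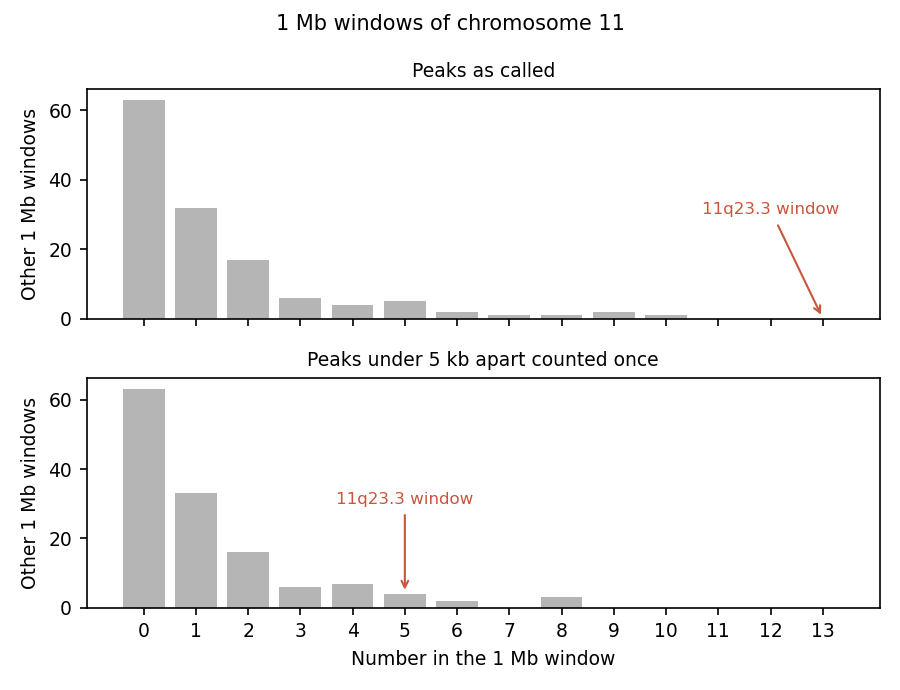
Number of 1 Mb windows of chromosome 11 (y axis) by the number of peaks in them (x axis), for peaks as called and with peaks under 5 kb apart counted once. The arrow marks the 11q23.3 window, which is at 13 above all others in the upper panel and at 5, among other windows, in the lower one.

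Widths and scores were compared with those of the other 180 peaks of chromosome 11. The median width was 483 bp in the window (quartiles 383 to 759 bp, range 294 to 1559 bp), against 363 bp on the rest of the chromosome (quartiles 268 to 529 bp, range 87 to 2661 bp). The 95% interval of the median, from the order of the 13 widths and covering the spread of these peaks only, ran from 333 to 812 bp and so included 363 bp. Of the 13 peaks, 6 were wider than 500 bp (46.2%, 95% Wilson interval 23.2 to 70.9%), against 27.2% of the others, which lies inside that interval. Such intervals treat the peaks of 1 library as units and do not measure variation between libraries. They also take the peaks as independent, although 9 of the 13 are close neighbours in 1 run. A value inside or outside them is therefore no test.

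The median score of the window was 161 (quartiles 144 and 559, range 124 to 3100). On the rest of chromosome 11 it was 192 (quartiles 129 and 422, range 100 to 3100), inside the 95% interval of the window's median, 143 to 918. At or above the median score of the list were 6 of the 13 peaks, or 46.2%, against 51.7% of the others. Below 200 were 8 of the 13, against 94 of the 180. At 3100 was 1 of the 13, against 8 of the 180. No test was made, and neither width nor score of the window is called different from the rest of the chromosome.

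The score difference from the rest of the chromosome did not keep its sign when peaks were counted in other ways. The 9 peaks of the run had the same median score as the window, 161. The 4 single peaks had a median of 533, above the 192 of the rest of the chromosome. That median lies between scores of 124 and 148 and scores of 918 and 3100, so it describes none of the 4. At or above the list's median were 2 of them, or 50%, against 51.7% on the rest of the chromosome. Median widths were 483 bp in the run and 530 bp for the single peaks. With the run counted as 1 place with its highest score, the median over the 5 places was 918. With the run kept and only peaks under 1 kb apart merged, the median of the window was 4.68 above that of the rest.

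Wider peaks scored higher in this list (Spearman's rho of 0.45 across its 2911 peaks), so each peak was also set beside the listed peaks whose width was within 20% of its own. By this measure 7 of the 9 peaks of the run scored below the median of peaks of like width, as did 9 of the 13 in the window, or 69.2% (95% Wilson interval 42.4 to 87.3%). On the rest of chromosome 11, 90 of 180 peaks, or 50%, did so, a share inside that interval. Peak 5 scored 132 where the median of 237 peaks of like width was 348, and 13.1% of those scored lower. Peak 12 scored 559 where the median of 160 such peaks was 2289, so that it was high in the run but not for its width. Peak 10 was the exception on the other side: it scored 1704 against a median of 229, above 91.3% of 446 peaks of like width. Peak 1, outside the run, scored 918 against 280, above 75.1% of 269 peaks. Peak 6 scored 191 against 187. Across the 9 peaks of the run Spearman's rho of score and width was 0.15, and across all 13 of the window it was 0.57. Across the other 180 peaks of the chromosome it was 0.42. These values are descriptions over peaks of 1 library that share their peak calling. The interval takes the peaks as independent, which close neighbours in the run may not be.

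**Figure D4:**
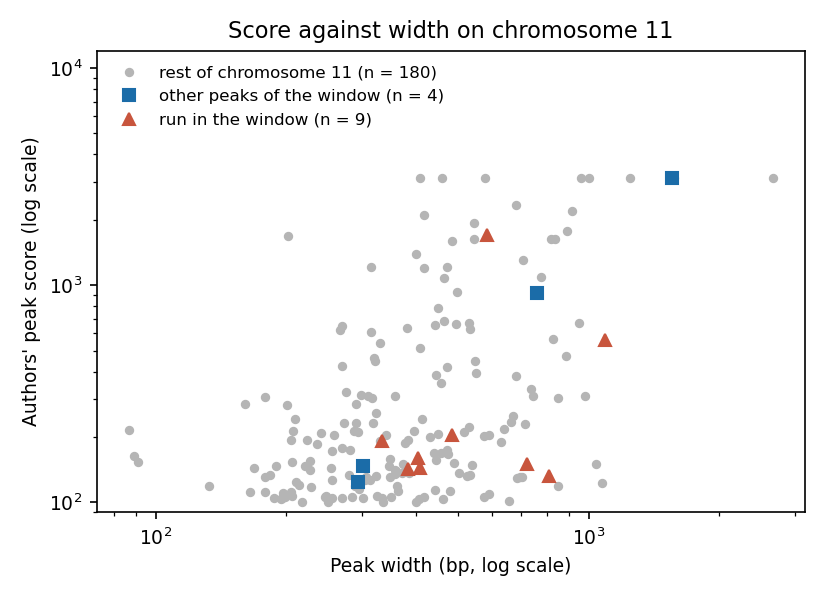
Score (y axis, log scale) against width in bp (x axis, log scale) for the peaks of chromosome 11: grey points are the 180 peaks outside the window, triangles the run of 9 and squares the other 4. The triangles at 721 and 812 bp, with scores of 150 and 132, lie low among peaks of their width, while the one at 584 bp reaches 1704.

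Runs of many close peaks were rare in the list. They were grouped by spacing only, and the genes and sequence at them were not examined. With the limit of 5 kb between neighbours, 2545 peaks stood alone, 131 runs had 2 peaks and 15 had 3, while 10 runs had 4 or more. The run at 11q23.3 had the second highest number of peaks, and on chromosome 11 the next largest runs had 3 peaks. The run with more peaks lay on chromosome 4 (bases 49294014 to 49326081), with 13 peaks in 32.1 kb, a median width of 806 bp and a median score of 142. Its highest score was 457, well below the 1704 of peak 10. A run of 8 peaks on chromosome 1 (bases 16268424 to 16275040) spanned 6.62 kb, with scores from 1994 to 3100, the latter shared by 5 of them. A run of 5 peaks on chromosome 16 (bases 88272359 to 88279694) spanned 7.34 kb, with a median score of 192 and 1 peak at 3100. Of the 9 peaks at 11q23.3, 5 scored below the median of the list, as did 9 of the 13 on chromosome 4, 0 of the 8 on chromosome 1 and 2 of the 5 on chromosome 16. The 9 centres at 11q23.3 fell within 20 kb. The most in any 20 kb was 4 on the rest of chromosome 11 and 10 on the other chromosomes.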

How the data were processed

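Per the submitters' processing notes, CASAVA, FastQC, Bowtie 0.12.7 and MACS 1.4.2 were used, and mm9 and hg19 are the builds named. Neither their settings nor the use of the input in peak calling is stated in these sources. The deposited list has no header and holds 5 columns (chromosome, start, end, name, score) for 1 Miz1 library. The score is a value of the authors and was used only within this list. Names run from 1 to 2911 without a break, and no peaks overlap. Coordinates are printed counting from 1.

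Centres, widths, gaps, runs and 1 Mb windows were computed with pandas 2.3.3 and scipy 1.17.1 in Python 3.11.15. Merging and spacing were tested on simulated lists. No tests between groups were made. The gene, gene-list and sequence descriptions that had been planned were not run, since no hg19 annotation or genome was used here. All 13 peaks of the window are named. The window, its peaks and the comparisons were chosen with earlier results of these data known. Alternatives were a score minimum, merging of close peaks, a moved window, another comparison set and removal of the run.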

Additional observations from a re-analysis of the deposited data

How the results depend on the processing

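Merging within 5 kb and leaving out the run were chosen after seeing the positions. In 27 of 38 alternatives, tried on 6 values, the value stayed in the same direction and within the interval of the median or within 1.5 times the count. With 13 peaks these intervals are wide, so some values inside them moved by more than 1.5 times. The number of peaks in the window went from 13 to 6 among peaks at or above the list's median score, to 3 with the window moved by 250 kb toward lower coordinates, to 5 places with peaks under 5 kb apart merged and to 4 without the run. By construction, the moved window leaves out the run. The median distance between neighbours went from 2.91 kb to 96.2 kb with the 5 kb merging, to 94.9 kb without the run and to 64.9 kb with the window moved toward lower coordinates, while the higher-scoring peaks gave 5.24 kb. The median score went from 161 to 738 for the higher-scoring peaks, to 918 with that moved window and with the 5 kb merging, and to 533 without the run. The difference in median score from the rest of chromosome 11 was -31.7 and turned positive in 5 alternatives. It was 346 for the higher-scoring peaks, 4.68 with peaks under 1 kb apart merged and 728 with the window moved toward lower coordinates. With the 5 kb merging it was 723, and without the run 340. Merged peaks took the highest score among them. The moved window and the removal of the run both drop the low peaks of the run, so these sign changes are not independent. The difference in median width, 120 bp, stayed positive in each alternative run, from 82 to 384 bp. A merged peak is wider than its parts, since its width counts the gaps between them. The alternatives also re-use the same few peaks, so the shared sign is not independent evidence of wider peaks. The 6 alternatives planned for genes, gene lists and sequence were not run. The read depth is not known, so weaker sites may not have been listed.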

Other observations

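The order of the 9 named genes was looked up in the mouse, whose RefSeq table (GRCm38.p6) was the gene table at hand. All 9 were matched, H2AFX through an older symbol, and all lay on mouse chromosome 9, in the order H2ax, Vps11, Hyou1, Trappc4, Rps25, Ddx6, Arcn1, Kmt2a and Ube4a. Trappc4, of the TRAPP vesicle tethers, and Rps25, of the small ribosomal subunit, were direct neighbours with 0 protein-coding genes between them, as were Hyou1 and Vps11. The largest number of protein-coding genes between neighbours of the set was 5, between Rps25 and Ddx6. In all, 22 protein-coding genes lay from the first to the last, 13 of them outside the set. This is the mouse order, and whether the human order is the same was not examined here. The mouse Miz1 list had 12 peaks on chromosome 9, and none was assigned to a gene because that list is in mm9, another build than the table.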
